A study of Mus musculus with 8 samples.

Results

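The vessel wall was followed in mouse pancreas by 10 genes, of the 48709 genes listed for each library. They are listed by name, as adhesion molecules, junction proteins, and other genes of endothelial cells, and the list was drawn up with earlier results of these data known. They are the selectins *Sele* and *Selp*, the immunoglobulin-family adhesion genes *Icam1* and *Vcam1*, the junction genes *Pecam1*, *Cdh5*, and *Esam*, and *Kdr*, *Angpt2*, and *Vwf*. Pancreata of male mice 8 weeks of age were taken 24 hours after treatment for bulk RNA-Seq, with 4 groups of 2 libraries. WT mice, bought from a vendor, received normal saline (WT saline) or palmitoleic acid (POA) and ethanol (WT FAEE-SAP), which models severe acute pancreatitis caused by fatty acid ethyl esters. Mice homozygous for floxed *Pfkfb3*, a gene for a regulator of glycolysis, and carrying *Pdx1*-Cre received saline (cKO saline) or POA and ethanol (cKO FAEE-SAP). *Pdx1* is active in the pancreatic epithelium and its precursors, not in endothelium. No group of Cre or floxed mice alone was analysed here, and the methods give buprenorphine with POA and ethanol, so effects of Cre, mouse source, or buprenorphine cannot be told apart from those of the groups.

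Leukocytes leave the blood in steps. Selectins on activated endothelium slow them by binding sugar-bearing ligands, ICAM-1 and VCAM-1 then hold them through integrins, and they pass between endothelial cells at junctions that hold PECAM-1, VE-cadherin (*Cdh5*), and ESAM. E-selectin (*Sele*) is made mainly after activation by cytokines such as TNF and IL-1, whereas P-selectin (*Selp*) and von Willebrand factor (*Vwf*) are also stored in Weibel-Palade bodies, and neutrophil entry of this kind is a known feature of acute pancreatitis.

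The 200 bases upstream of the RefSeq start are printed for 3 adhesion genes, *Sele*, *Selp*, and *Icam1*, and for *Kdr*, a receptor gene for comparison (RefSeq, GRCm38.p6, 5′ to 3′ in the direction of the gene). The RefSeq start of *Icam1* lies upstream of the GENCODE start given with its values. Promoters of the other 6 members, *Vcam1*, *Pecam1*, *Cdh5*, *Esam*, *Angpt2*, and *Vwf*, are not shown. Capitals mark matches on either strand to GGNNNTTCC (NF-kB-like motif), TGACTCA (motif of AP-1), AGGAAG (ETS-like motif), and TATAAA (the TATA box). The motifs do not overlap in these windows. The motifs were chosen after the sequences had been read.
Sele (chr1:164048034-164048233, plus strand): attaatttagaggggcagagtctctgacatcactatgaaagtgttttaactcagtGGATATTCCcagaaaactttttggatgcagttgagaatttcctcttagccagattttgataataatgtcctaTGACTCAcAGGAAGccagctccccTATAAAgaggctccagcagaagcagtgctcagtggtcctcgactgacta
Selp (chr1:164115064-164115263, plus strand): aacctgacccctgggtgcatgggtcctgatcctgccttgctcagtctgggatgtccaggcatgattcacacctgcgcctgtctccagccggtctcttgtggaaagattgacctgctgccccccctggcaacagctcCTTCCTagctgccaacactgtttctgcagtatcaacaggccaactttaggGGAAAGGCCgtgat
Icam1 (chr9:21015740-21015939, plus strand): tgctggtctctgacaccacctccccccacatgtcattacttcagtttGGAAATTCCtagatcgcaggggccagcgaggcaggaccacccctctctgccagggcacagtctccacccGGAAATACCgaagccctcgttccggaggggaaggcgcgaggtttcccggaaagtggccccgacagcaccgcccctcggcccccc
Kdr (chr5:75978456-75978655, minus strand): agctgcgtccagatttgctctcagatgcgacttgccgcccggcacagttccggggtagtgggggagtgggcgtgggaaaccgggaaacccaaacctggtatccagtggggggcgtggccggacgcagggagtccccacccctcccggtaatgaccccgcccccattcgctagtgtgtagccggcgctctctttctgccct

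Of 32851 promoters of this length, 13.1% held the NF-kB-like motif, 3.66% the AP-1 motif, 9.96% the TATA box, and 24.7% the ETS-like motif. The *Sele* promoter held each of the 4, with GGATATTCC at 145 to 137 bases upstream of the start and TATAAA at 49 to 44 bases. The *Selp* promoter held 1 match each to the NF-kB-like and ETS-like motifs, and its NF-kB-like match ended 6 bases before the start. The *Icam1* promoter held the NF-kB-like motif at 2 places, 153 to 145 and 84 to 76 bases upstream. None of the 4 was found in the *Kdr* window. These are matches of letters, and binding was not measured.

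The values are RPKM (reads for each kilobase of exon, relative to all mapped reads of a library), which the authors deposited, scaled so that the 8 libraries have the same typical ratio across genes. Depth worked out from the values was 22.9 to 37.7 M reads per library. The scaling mattered here: as deposited, the median gene was 1.24 higher on the log2 scale in WT FAEE-SAP than in WT saline, and 0.57 higher in cKO FAEE-SAP than in cKO saline. The summed scaled RPKM of 8 acinar markers was 195886 to 227996 in WT saline, 61200.1 and 63694.5 in WT FAEE-SAP, 263066 and 267284 in cKO saline, and 153643 and 169467 in cKO FAEE-SAP. By lymphoid markers, 2 libraries stood apart. The summed scaled RPKM of 8 lymphoid genes was 34.7 and 71.0 in WT saline, and 103 and 34.8 in cKO FAEE-SAP, against 36.9 to 55.8 in the other 4 libraries. The summed scaled RPKM of 20 other endothelial markers, such as *Tie1* and *Emcn*, was 31.3 to 51.1 over the 8 libraries, and each of the 20 reached 0.5 RPKM in at least 1 library. Values per gene cannot show the deletion of *Pfkfb3* exons 2 and 3. Scaled *Pfkfb3* was 1.70 and 1.69 in WT saline against 0.880 and 2.10 in cKO saline, and 1.85 and 3.21 in WT FAEE-SAP against 1.74 and 2.82 in cKO FAEE-SAP.

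A gene was tested where it reached 0.5 RPKM, as deposited, in at least 2 libraries of a comparison, and was called at a Benjamini-Hochberg adjusted p under 0.05 (limma, adjusted over all genes tested) and a change of at least 2-fold. With FAEE-SAP in WT mice, 8 members were tested and 1, *Selp*, was called, against 6.93% of all genes, and 2 had an unadjusted p under 0.05 in limma, against 27.7%. Of the 8 members tested in WT, 3 (*Selp*, *Icam1*, and *Vcam1*) were higher and 2 (*Kdr* and *Esam*) lower with FAEE-SAP without overlap of the libraries, as were 29.3% and 29.5% of all genes. With FAEE-SAP in cKO mice, 0 of 7 were called, against 0.0531%. For cKO against WT, 0 of 8 were called after FAEE-SAP, against 1.27%, and 0 of 7 after saline, where no gene was called at all (0%). The difference between the genotypes in the response to FAEE-SAP (interaction) was called for 0 of 8 members, against 0.0719%. In the comparisons with 0 members called, limma gave an unadjusted p under 0.05 for 0 members with FAEE-SAP in cKO (9.42% of all genes), 4 in cKO against WT after FAEE-SAP (19.5%), 0 after saline (2.15%), and 2 in the interaction (12.6%). *Sele* and *Angpt2* were under the expression minimum in each comparison.

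**Figure D1:**
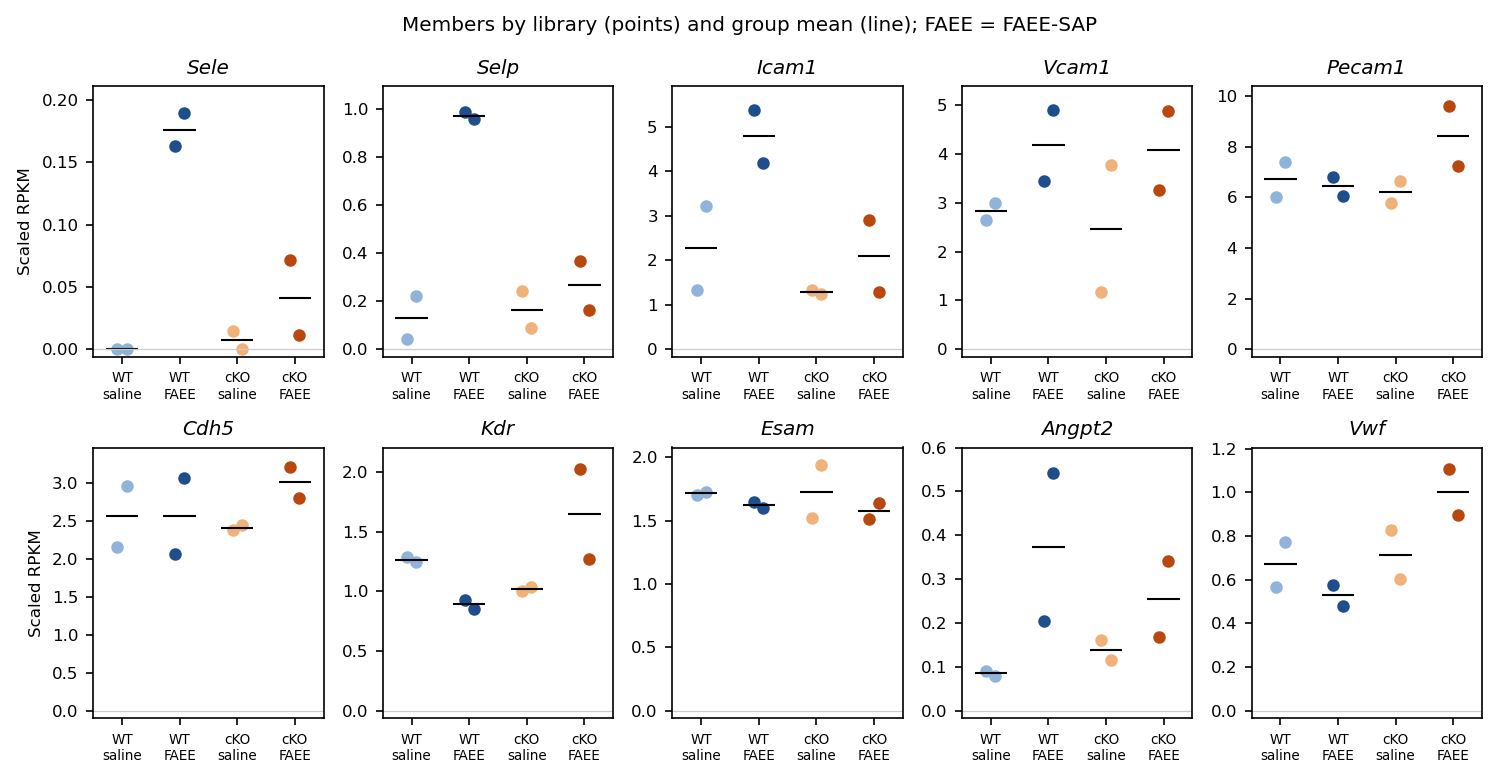
Scaled RPKM of the 10 members, 1 panel per gene with its own axis from 0. Points are libraries (2 per group), lines are group means, and FAEE stands for FAEE-SAP. *Sele*, *Selp*, and *Icam1* have both WT FAEE-SAP libraries above all 6 others, whereas *Pecam1*, *Cdh5*, and *Esam* stay within narrow ranges.

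*Sele* had the lowest mean level of the 10 members and was found mainly in WT FAEE-SAP. It lies on chromosome 1 (GRCm38, 164048234 to 164057677, plus strand) upstream of *Selp* (164115264 to 164150026, plus strand). In WT saline it was listed at 0 in both libraries. In WT FAEE-SAP it was 0.163 and 0.190 scaled RPKM, about 22 and 35 reads. In cKO saline it was 0.0146 and 0, about 1 and 0 reads. In cKO FAEE-SAP it was 0.0713 and 0.0114, about 6 and 1 reads. Both WT FAEE-SAP libraries lay above every other library, and the cKO FAEE-SAP values overlapped those of cKO saline. Against a floor of 3 reads per library, *Sele* was at least 3.77-fold higher in WT FAEE-SAP than in WT saline, and it was 4.37-fold higher than in cKO FAEE-SAP (95% interval 1.99 to 11.4). The cKO FAEE-SAP to cKO saline ratio was 5.26 with an interval from 0.675 to 237, so no difference was detectable at this depth. These intervals cover counting error only, from approximate reads, and do not include the spread between mice.

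*Selp* was 0.0439 and 0.220 scaled RPKM in WT saline, and 0.986 and 0.958 in WT FAEE-SAP. It was 0.242 and 0.0868 in cKO saline, and 0.369 and 0.165 in cKO FAEE-SAP. The WT FAEE-SAP libraries were again above all the others, while the values of the other 3 groups overlapped. *Selp* rose with FAEE-SAP in WT mice by 2.44 on the log2 scale (SE 0.45, adjusted p = 0.0359), 5.44-fold. It reached the expression minimum only through the WT FAEE-SAP libraries, so it could enter each test that includes this group, the interaction among them, only where this group was high. With a pseudocount of 1 its fitted change in WT, 0.93, was under 2-fold. The call was also lost with a pseudocount of 0.01 (change 3.17, adjusted p = 0.0597) and with no filter (2.50, adjusted p = 0.0817). Without WT saline replicate 1 the change was 1.86 (adjusted p = 0.0537) and was not called, and without WT saline replicate 2 it was 3.17 (adjusted p = 0.00586) and was called. Leaving out either WT FAEE-SAP library put *Selp* under the minimum. Over its 11 alternatives the adjusted p ranged from 0.00158 to 0.0817. In cKO against WT after FAEE-SAP its fitted difference was -1.70 (SE 0.37, adjusted p = 0.103), which did not pass the test.

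Platelets also carry P-selectin, von Willebrand factor, and PECAM-1. The summed scaled RPKM of 8 platelet markers was 1.66 to 2.75 in WT saline, 4.68 to 8.88 in WT FAEE-SAP, 2.45 to 4.69 in cKO saline, and 12.6 to 15.1 in cKO FAEE-SAP. The sum was highest in cKO FAEE-SAP. *Pf4* and *Ppbp* made up most of it, and the platelet receptor genes *Gp1ba*, *Gp1bb*, and *Gp9* and the receptor gene *Treml1* were each under 0.5 RPKM in all libraries. Their part in the *Selp*, *Vwf*, and *Pecam1* values was not tested.

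*Icam1* encodes the ligand of the leukocyte integrins LFA-1 and Mac-1, and leukocytes and epithelium express it too. It lies on chromosome 9 (21015985 to 21028817, plus strand). It was 1.33 and 3.23 scaled RPKM in WT saline, and 5.38 and 4.19 in WT FAEE-SAP. It was 1.34 and 1.24 in cKO saline, and 2.92 and 1.28 in cKO FAEE-SAP. Both WT FAEE-SAP libraries were above the other 6. The higher library of WT saline and that of cKO FAEE-SAP were those with the higher lymphoid sums, and the part of lymphoid cells in these values was not tested. The fitted change with FAEE-SAP in WT was 1.15 (SE 0.42, adjusted p = 0.145) and was not called. Without WT saline replicate 2 it was 1.75 (adjusted p = 0.0400) and was called, and without WT saline replicate 1 it was 0.55 (adjusted p = 0.387). With FAEE-SAP in cKO the change was 0.57 (SE 0.41, adjusted p = 0.666), and 0.018 to 1.19 without each library in turn. In cKO against WT after FAEE-SAP it was -1.27 (SE 0.40, adjusted p = 0.180), and -1.83 to -0.72 without each library.

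An alternative chosen after the data were seen left out both libraries with high lymphoid sums in the interaction. With all libraries 0 members were called there, so calls cannot show whether the members depended on these libraries. Leaving them out puts 1 library in 2 of the groups, and they held the higher *Icam1* and *Selp* values of their groups. The summed level of neutrophil markers was, like *Sele*, *Selp*, and *Icam1*, highest in both WT FAEE-SAP libraries, but unlike these genes it was also higher with FAEE-SAP in cKO without overlap. The summed scaled RPKM of 7 of them was 1.32 to 2.24 in WT saline, 54.1 to 59.4 in WT FAEE-SAP, 1.28 to 3.67 in cKO saline, and 12.6 to 19.8 in cKO FAEE-SAP. Their part in *Icam1* was not tested.

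*Vcam1*, the ligand of the integrin VLA-4, lies on chromosome 3 (116109949 to 116129688, minus strand). It was 2.65 and 2.997 in WT saline, 3.45 and 4.90 in WT FAEE-SAP, 1.18 and 3.76 in cKO saline, and 3.26 and 4.89 in cKO FAEE-SAP. The 2 FAEE-SAP groups covered nearly the same range, and the cKO saline libraries were the farthest apart of any pair of this gene. Its fitted change with FAEE-SAP was 0.53 in WT (SE 0.24, 95% interval -0.07 to 1.12, adjusted p = 0.224) and 0.90 in cKO (SE 0.56, adjusted p = 0.630). The change in cKO was 0.12 without cKO saline replicate 1 and 1.70 without cKO saline replicate 2, and neither was called. For cKO against WT after FAEE-SAP it was -0.05, with an interval from -0.80 to 0.69. Of the 4 selectin and immunoglobulin-family genes, *Vcam1* alone had its WT and cKO FAEE-SAP libraries interleaved.

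Of the members, the junction gene *Pecam1* had the highest mean level on a scale per exon length, and *Vcam1* lay between it and the other junction genes. *Pecam1*, an adhesion receptor of endothelium and platelets on chromosome 11 (106654217 to 106750628, minus strand), was 6.03 and 7.39 in WT saline, 6.82 and 6.06 in WT FAEE-SAP, 5.77 and 6.65 in cKO saline, and 9.61 and 7.25 in cKO FAEE-SAP. *Cdh5*, the cadherin of endothelial adherens junctions on chromosome 8 (104101625 to 104144511, plus strand), was 2.15 and 2.97 in WT saline, 2.06 and 3.07 in WT FAEE-SAP, 2.38 and 2.45 in cKO saline, and 3.21 and 2.81 in cKO FAEE-SAP. *Esam*, a tight-junction adhesion molecule on chromosome 9 (37528078 to 37538319, plus strand), was 1.71 and 1.72 in WT saline, 1.65 and 1.60 in WT FAEE-SAP, 1.52 and 1.94 in cKO saline, and 1.51 and 1.64 in cKO FAEE-SAP. In WT, FAEE-SAP and saline libraries overlapped for *Pecam1* and *Cdh5*, and for *Esam* lay apart by a narrow gap. The fitted changes in WT were -0.06 (95% interval -0.55 to 0.43), -0.01 (-0.71 to 0.69), and -0.08 (-0.59 to 0.42), respectively. In a bulk sample, fewer endothelial cells and less RNA per cell cannot be told apart.

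In cKO, both FAEE-SAP libraries were above both saline libraries for *Pecam1* and *Cdh5*, and also for *Kdr* and *Vwf*, among the 7 members tested. These 4 members without overlap compare with 21.8% of all genes that were higher in this way, and none passed the test. The fitted change was 0.45 for *Pecam1* (SE 0.23, adjusted p = 0.580) and 0.33 for *Cdh5* (SE 0.18, adjusted p = 0.592). The summed level of the 20 other endothelial markers was 32.8 and 32.9 in cKO saline and 40.5 and 51.1 in cKO FAEE-SAP, against 34.2 to 37.7 in WT saline and 31.3 to 34.9 in WT FAEE-SAP. Other marker sums were higher in the same libraries. The summed scaled RPKM of 7 macrophage markers was 83.8 to 87.1 in cKO saline and 105.5 to 121.8 in cKO FAEE-SAP, and that of 6 lymphatic endothelial markers was 25.5 to 35.5 and 49.1 to 68.7. For the lymphatic markers, WT saline was 37.1 to 64.2 and overlapped cKO FAEE-SAP. The part of macrophages and lymphatic endothelium in the values of these 4 members was not tested. Of the 20 other endothelial markers, 0 were called in cKO with FAEE-SAP, 17 were tested, and 14 had a positive change (median 0.54), with 1 of them, *Erg*, tested only through the FAEE-SAP libraries.

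*Kdr* encodes VEGF receptor 2, the main signaling receptor for VEGF-A on endothelium, on chromosome 5 (75932827 to 75978458, minus strand). It was 1.29 and 1.24 in WT saline, and 0.928 and 0.856 in WT FAEE-SAP. It was 1.01 and 1.04 in cKO saline, and 2.02 and 1.27 in cKO FAEE-SAP. The WT libraries were lower and the cKO libraries were higher with FAEE-SAP than with saline, without overlap in either genotype. The fitted change was -0.48 in WT (SE 0.22, adjusted p = 0.228) and 0.62 in cKO (SE 0.27, adjusted p = 0.557), and their difference was 1.07 (SE 0.33, unadjusted p = 0.0135 and adjusted p = 0.284 in limma). Neither change nor the difference passed the test. The change in cKO was 0.31 without cKO FAEE-SAP replicate 1 and 0.99 without cKO FAEE-SAP replicate 2. In values as deposited, *Kdr* in WT was higher with FAEE-SAP by 0.75, below the shift of the median gene. *Kdr* in cKO against WT after FAEE-SAP was 0.79 (SE 0.29, adjusted p = 0.217).

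*Angpt2*, an antagonist ligand of the Tie2 receptor that endothelium releases on activation, lies on chromosome 8 (18690263 to 18741562, minus strand), within *Mcph1* on the other strand. It was 0.0918 and 0.0801 in WT saline, about 7 reads each, and 0.204 and 0.543 in WT FAEE-SAP, about 35 and 127 reads. It was 0.162 and 0.117 in cKO saline, and 0.169 and 0.341 in cKO FAEE-SAP. Both FAEE-SAP groups were above their saline libraries, and WT and cKO overlapped after FAEE-SAP. The ratio of pooled reads was 4.67 in WT (2.71 to 8.74), 1.83 in cKO (1.11 to 3.11), and 1.55 for WT against cKO after FAEE-SAP (1.14 to 2.15), counting error only. The WT FAEE-SAP libraries differed from each other by more than WT FAEE-SAP and cKO FAEE-SAP means did. *Mcph1* had a mean of 0.251 RPKM, and no exons of this pair overlap. Exons of *Selp*, *Icam1*, and *Vcam1* overlap genes on the other strand, and whether counting used strand is not stated. The 2 genes on the other strand of *Selp* had means of 0.0044 and 0.0037 RPKM.

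*Vwf*, the carrier of factor VIII and ligand of platelets, lies on chromosome 6 (125546774 to 125686679, plus strand). It was 0.566 and 0.773 in WT saline, 0.578 and 0.480 in WT FAEE-SAP, 0.826 and 0.602 in cKO saline, and 1.11 and 0.898 in cKO FAEE-SAP. The cKO FAEE-SAP libraries were above all 6 others. WT saline overlapped both WT FAEE-SAP and cKO saline, and the WT FAEE-SAP libraries were below both of cKO saline. *Vwf* was 0.83 higher in cKO than in WT after FAEE-SAP on the log2 scale (SE 0.26, adjusted p = 0.183), and the change with FAEE-SAP was -0.30 in WT (SE 0.27, adjusted p = 0.537) and 0.46 in cKO (SE 0.25, adjusted p = 0.591). None of these passed the test.

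**Figure D2:**
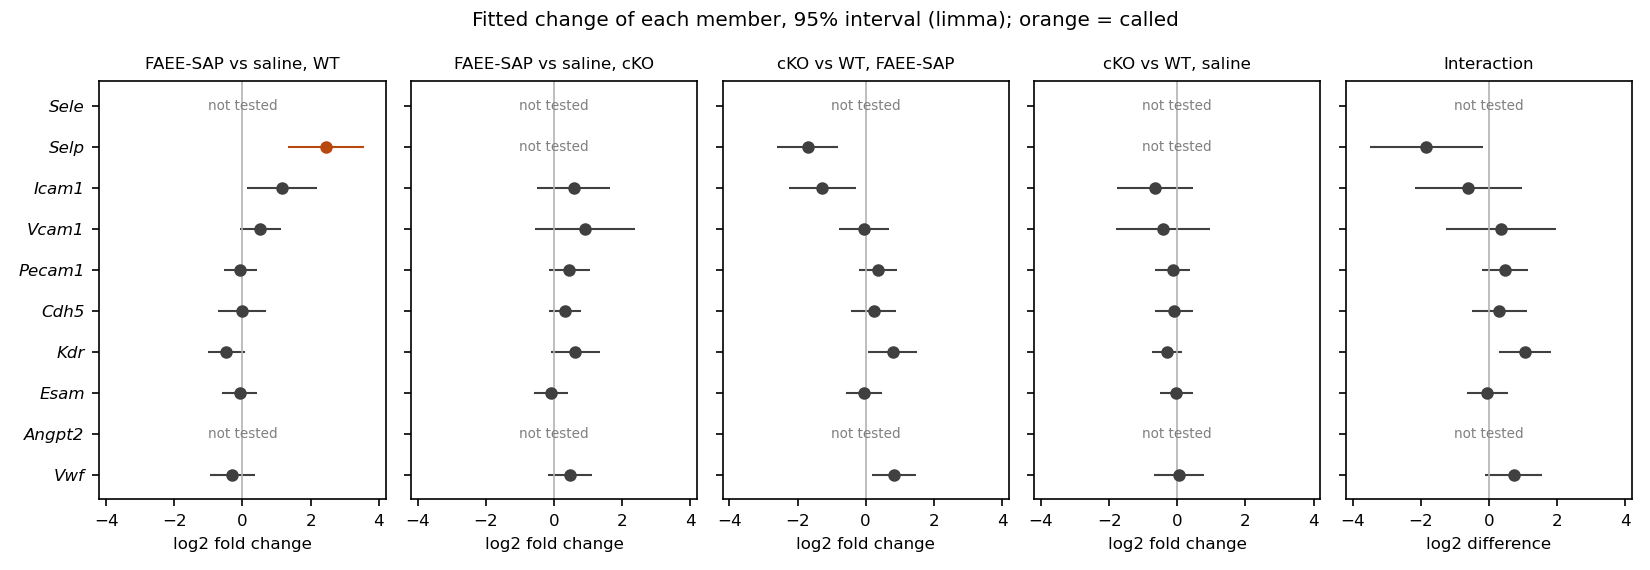
Fitted log2 fold change of each member (points) with its 95% interval (lines) from limma, 1 panel per comparison. The interaction panel shows the change with FAEE-SAP in cKO minus that in WT, orange marks the call, and genes under the expression minimum are shown as not tested. *Selp* in WT is the 1 call.

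After FAEE-SAP, members lay in both directions in cKO against WT. Of the 8 tested, *Selp* and *Icam1* were lower in both cKO libraries, and *Pecam1*, *Kdr*, and *Vwf* were higher in both. These 2 and 3 members compare with 25.7% and 26.1% of all genes without overlap in those directions. The smallest adjusted p among the 8 tested was that of *Selp*, and none passed the test. With replicate number as a block in limma, *Selp* (adjusted p = 0.0417) and *Icam1* (0.0498) were called. So were 568 of all 11008 genes tested, against 140 without the block. Here too *Selp* was tested only through the WT FAEE-SAP libraries. The labels do not say that a number marks shared mice or days. Without cKO FAEE-SAP replicate 1, *Selp* was called at -2.16 (adjusted p = 0.0465), and without cKO FAEE-SAP replicate 2 it was -1.29 (adjusted p = 0.166) and was not. After saline, 1 member tested was without overlap between the genotypes, *Kdr*, lower in cKO by a fitted change of -0.30 (SE 0.17, adjusted p = 0.999), against 14.2% of all genes lower in this way, and the other 6 members tested overlapped.

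The WT response of the members depended on scaling, as that of all genes did. As deposited, 6 members were called (*Selp*, *Icam1*, *Vcam1*, *Pecam1*, *Cdh5*, and *Esam*), as were 7270 of all 10894 genes tested. All 8 members tested were higher with FAEE-SAP, by 0.75 (*Kdr*) to 3.37 (*Selp*). Read against the median gene at 1.24, *Selp*, *Icam1* (2.43), and *Vcam1* (1.82) lay above it, *Pecam1* (1.25) and *Cdh5* (1.27) beside it, and *Esam* (1.18), *Vwf* (0.86), and *Kdr* below it. Scaling divides each library by a single factor and so shifts all changes nearly alike. The scaled changes thus had the same order, which is no separate result, with 5 members below 0.

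**Figure D3:**
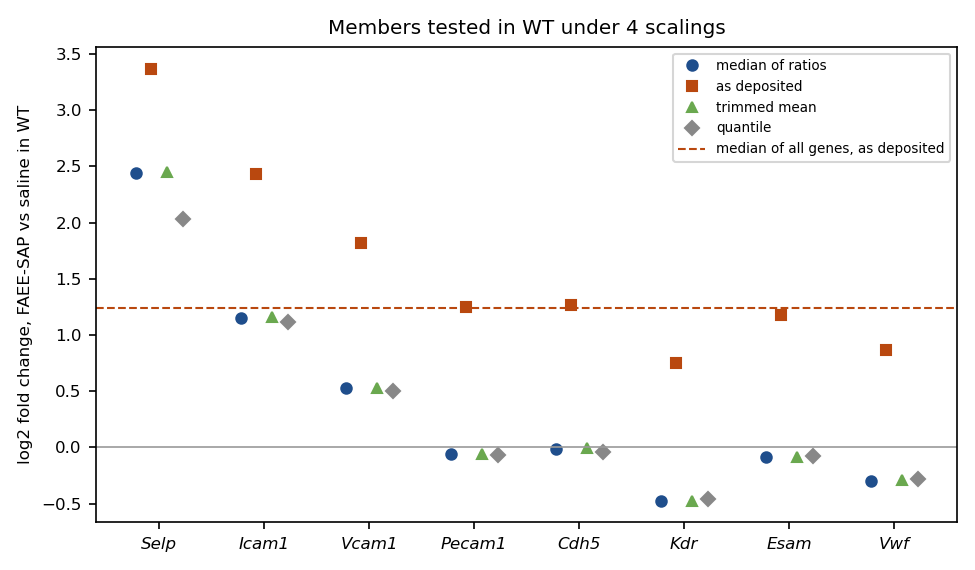
Log2 fold change with FAEE-SAP in WT for the 8 members tested, under 4 scalings (symbols), with the median of all genes as deposited as a dashed line. Values as deposited are shifted up together, and *Selp*, *Icam1*, and *Vcam1* are above the median gene under each scaling.

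The adhesion genes were also set against a sum of 20 other endothelial markers. *Plvap* was the largest of these in each library (11.2 and 5.85 scaled RPKM in WT FAEE-SAP). Such a ratio does not show which cells expressed a gene. As a percentage of the summed RPKM of the 20 other endothelial markers, *Selp* was 0.128 and 0.584 in WT saline, 2.83 and 3.06 in WT FAEE-SAP, 0.735 and 0.264 in cKO saline, and 0.722 and 0.408 in cKO FAEE-SAP. *Icam1* was 3.90 and 8.55, 15.4 and 13.4, 4.09 and 3.79, and 5.71 and 3.16 percent in the same order of groups. *Sele* was 0.466 and 0.605 percent in WT FAEE-SAP, and 0.140 or less in every other library. These 3 genes were highest in both WT FAEE-SAP libraries by this measure too, which does not depend on the scaling between libraries. *Vcam1* was 9.88 and 15.6 percent in WT FAEE-SAP, above the 7.75 and 7.94 of WT saline. It overlapped the cKO libraries, which were at 3.59 to 12.1 percent. *Kdr* was 2.66 and 2.73 percent in WT FAEE-SAP, below the 3.77 and 3.30 of WT saline, whereas in cKO it was 3.06 and 3.16 with saline and 3.96 and 3.14 with FAEE-SAP, with overlap. By this measure *Pecam1* and *Vwf* also overlapped between the cKO groups, and *Cdh5* was lower with FAEE-SAP (6.29 and 6.93 percent) than with saline (7.23 and 7.46). One of the 20 markers, *Rasip1*, itself rose with FAEE-SAP in WT.

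**Figure D4:**
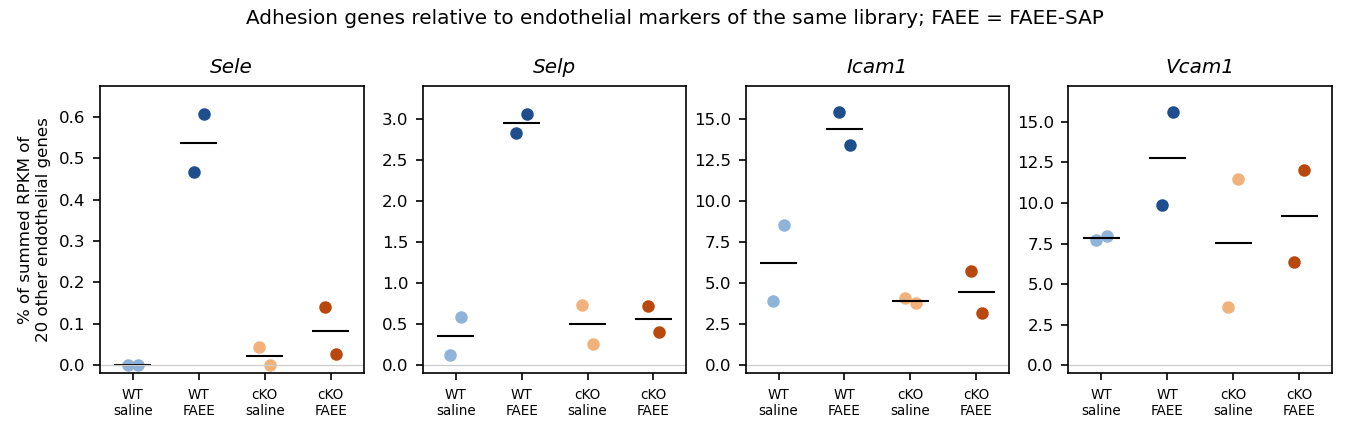
*Sele*, *Selp*, *Icam1*, and *Vcam1* as a percentage of the summed RPKM of 20 other endothelial marker genes in the same library (points), with group means (lines) and axes from 0. FAEE stands for FAEE-SAP. *Sele*, *Selp*, and *Icam1* in both WT FAEE-SAP libraries are above all other libraries, and *Vcam1* overlaps the cKO libraries.

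Other genes of leukocyte trafficking and vessel biology were counted from lists. A list of 12 genes held those that induce adhesion molecules or carry or regulate that signal. They were TNF and IL-1 ligands and receptors, *Lta*, *Ifng*, *Rela*, *Nfkb1*, *Nfkbia*, and *Irf1*. Of the 12, 10 were tested in WT and 4 were called, against 6.93% of all genes. *Il1b*, *Il1a*, and *Tnf* reached the expression minimum only through the WT FAEE-SAP libraries, so they could enter only where this group was high. Of the other 7, 2 were called. *Il1b*, the gene for the cytokine IL-1 beta, rose by 3.52 (SE 0.45, adjusted p = 0.0137), and *Rela*, an NF-kB subunit gene, rose by 1.85 (SE 0.29, adjusted p = 0.0234). *Il1b* was 0 and 0.111 in WT saline, 1.36 and 1.32 in WT FAEE-SAP, 0.0895 and 0.0502 in cKO saline, and 0.599 and 0.226 in cKO FAEE-SAP. *Rela* was 15.2 and 24.7 in WT FAEE-SAP and 4.62 to 6.72 in the other 6 libraries. In cKO with FAEE-SAP, 0 of 7 tested from this list were called, and in cKO against WT after FAEE-SAP 0 of 10 were called.

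Of 11 leukocyte counter-receptor genes, such as integrin subunits and the P-selectin ligand, 10 were tested in WT and 0 were called (median 0.32). Of 10 genes for enzymes that build selectin ligands, 8 were tested and 1 was called: *Gcnt1*, a core 2 O-glycan branching enzyme, fell by 2.18 (SE 0.26, adjusted p = 0.0115). Of 13 other genes of endothelial adhesion and transmigration, 1 was called: *F11r* (JAM-A), a junction protein of epithelium and endothelium, rose by 1.55 (SE 0.19, adjusted p = 0.0126). *F11r* was 15.5 and 14.99 in WT FAEE-SAP and 4.58 to 8.09 in the other 6 libraries. Epithelium also expresses both *Gcnt1* and *F11r*.

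Of 13 VEGF and angiopoietin ligands and receptors, 11 were tested in WT, with a median of -0.58, and *Vegfb*, a ligand of VEGF receptor 1, was the 1 called, and fell by 1.37 (SE 0.29, adjusted p = 0.0465). Of 11 endothelial transcription factor genes and *Nos3*, 9 were tested and 0 were called (median -0.04). Of the 20 other endothelial markers, 1 was called, *Rasip1*, a regulator of vessel junctions, which rose by 1.46 (SE 0.24, adjusted p = 0.0276), and the median was -0.20. In the other 4 comparisons, 0 genes of these lists were called. The median over all genes tested was 0.02 in WT and -0.01 in cKO. These medians are over genes that passed the expression minimum, some of them through 1 group alone.

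The genes most like *Sele* and *Cdh5* across the 8 libraries were looked up among 7370 genes, by Pearson correlation of log2 values. The libraries share scaling and 4 groups, so these are descriptions. Most like *Sele* were *Hp*, *Rasip1*, *Coq8b*, *Rap1b*, and *Ptx3*, with r from 0.975 to 0.978. *Ptx3*, the gene for the secreted pattern receptor pentraxin 3, was listed at 0 in WT saline, 4.97 and 3.04 in WT FAEE-SAP, 0.0674 and 0.0252 in cKO saline, and 0.456 and 0.210 in cKO FAEE-SAP. Most like *Cdh5* were *Ankrd11*, *Fam107b*, *Cerk*, *Cldn5*, and *Bmyc*, with r from 0.858 to 0.936. *Cldn5*, the claudin of endothelial tight junctions, was 2.64 and 3.32 in WT saline, 1.92 and 4.11 in WT FAEE-SAP, 2.53 and 1.86 in cKO saline, and 5.71 and 3.94 in cKO FAEE-SAP. Within the members, r was 0.94 between *Sele* and *Selp* and 0.88 between *Selp* and *Icam1*, 0.82 between *Pecam1* and *Kdr*, and 0.78 between *Kdr* and *Vwf*, over the same 8 libraries. Between *Sele* and *Pecam1* it was 0.05.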

How the data were processed

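The authors sequenced pancreatic RNA of all 4 groups with a directional library kit and paired ends. Per the methods and the submitters' processing notes, reads were filtered with fastp and mapped to GRCm38.p6 with CLC Genomics Workbench. How RPKM was counted, and whether by strand, is not given in the sources used here. The authors deposited RPKM for 48709 genes in each of 8 libraries, and these are not counts.

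Samples were grouped by their labels (2 libraries per group, described as biological replicates). Library totals of 22.9 to 37.7 M reads were worked out from low RPKM values and exon lengths of GENCODE vM21, to which 95.1% of the genes were matched by symbol. Reads came out whole within 0.1 for 84.2% to 85.5% of low values and summed over matched genes to 100.3% to 105.7% of the totals, so reads per gene are approximate. Libraries were scaled by median of ratios, over each comparison for tests and over all 8 libraries for levels, so that fold changes can differ slightly from ratios of the levels shown. Genes with at least 0.5 deposited RPKM in at least 2 libraries of a comparison were tested with limma 3.58.1 (R 4.3.3, intensity trend) on log2(scaled RPKM + 0.1), which understates the change of low genes, and p-values were adjusted by Benjamini-Hochberg over every gene in the fit. The smallest two-sided p of an exact permutation test of 2 against 2 is 0.33. The procedure was tested on simulated data. Intervals on reads are exact and at 95%, with a floor of 3 reads per library.

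The members and gene lists were chosen with earlier results of these data known. All 10 members are given. From each list the text names up to 2 called genes per direction and comparison with no overlap, and the 5 genes most like *Sele* and *Cdh5* among genes with a mean of at least 1 RPKM. Alternatives were other scalings, filters, and pseudocounts, no intensity trend, all 8 libraries in 1 model, no fold minimum, replicate number as a block, and each library left out. The result of 1 gene list is not reported here. Promoters were from RefSeq. Python 3.11.15 with scipy 1.17.1 and matplotlib 3.10.9 was used.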

Additional observations from a re-analysis of the deposited data

Results flagged for a closer look

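*Kdr* was singled out because both WT libraries moved down and both cKO libraries moved up with FAEE-SAP relative to saline. The difference between the genotypes in the log2 change was 1.07 (SE 0.33), which limma gave an adjusted p of 0.284, so it did not pass the test. Over 17 alternatives the difference was 0.43 to 1.37 and the adjusted p 0.259 to 0.626.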

How the results depend on the processing

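Of 79 counts of members called under alternatives, 68 stayed within 1.5 times the count reported. The count in WT was 6 as deposited, where 7270 of all 10894 genes tested were called. It was 0 with an RPKM minimum of 2 (*Selp* was then not tested) or a pseudocount of 1 or 0.01. Without each library in turn it was 0 to 2. In cKO against WT after FAEE-SAP, it was 2 as deposited, where 4427 of all 11008 genes tested were called. Of 538 alternative log2 fold changes, 40 changed sign, and of those that kept it 8 passed the test where the reported one had not and 4 no longer passed. Of the 40, *Pecam1*, *Cdh5*, and *Esam* in WT as deposited also passed. Except where stated, the cause of these differences was not tested.

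As deposited, where every change shifts with the median gene, the changed signs were those of *Pecam1* (1.25), *Cdh5* (1.27), *Kdr* (0.75), *Esam* (1.18), and *Vwf* (0.86) in WT, and *Esam* (0.49) in cKO. In cKO against WT they were *Pecam1* (-0.59), *Cdh5* (-0.70), *Kdr* (-0.11), and *Vwf* (-0.046) after FAEE-SAP, and *Vwf* (-0.18) after saline. In the interaction they were *Vcam1* (-0.33), *Pecam1* (-0.18), and *Cdh5* (-0.34). With no filter, *Pecam1* (0.0062) and *Cdh5* (0.053) changed sign in WT. With an RPKM minimum of 2, *Vcam1* (0.0044) and *Esam* (0.0042) did so in cKO against WT after FAEE-SAP and *Esam* (0.035) in the interaction. With quantile normalization, *Esam* (0.0028) changed sign in cKO against WT after saline, and without both libraries with high lymphoid sums, *Esam* (0.015) in the interaction.

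Without each library in turn, *Pecam1* ranged from -0.20 to 0.068 and *Cdh5* from -0.25 to 0.31 in WT, and *Esam* from -0.25 to 0.083 in cKO. In cKO against WT after FAEE-SAP, *Vcam1* ranged from -0.36 to 0.26, *Cdh5* from -0.065 to 0.51, and *Esam* from -0.13 to 0.033. After saline, *Vcam1* ranged from -1.20 to 0.37, *Pecam1* from -0.31 to 0.032, *Cdh5* from -0.34 to 0.15, *Esam* from -0.19 to 0.14, and *Vwf* from -0.16 to 0.24. In the interaction, *Icam1* ranged from -1.21 to 8.3e-05, *Vcam1* from -0.46 to 1.15, and *Esam* from -0.22 to 0.12. Where a library left out leaves 1 in a group, that one is taken to vary like the other group.

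With replicate number as a block, 2 members, *Selp* and *Icam1*, were called in cKO against WT after FAEE-SAP, and no other count of members changed. Over all genes the block moved the calls from 755 to 442 in WT, 5 to 52 in cKO, 140 to 568 in cKO against WT after FAEE-SAP, and 8 to 0 in the interaction. The labels do not say that a number marks a shared mouse or day, and deviations of same-numbered libraries correlated from -0.52 to 0.40 between groups, so the numbers were not taken as pairs. Without each library, calls over all genes ranged from 97 to 491 in WT, 0 to 6 in cKO, 0 to 139 in cKO against WT after FAEE-SAP, and 0 to 4 in the interaction. As deposited they were 7270, 15, 4427, and 791 in that order, and 2 after saline. With no filter they were 259, 0, 0, and 0. In cKO against WT after FAEE-SAP they were 78 with quantile normalization, 57 without the intensity trend, and 299 with all 8 libraries in 1 model, which gave 15 in cKO. In the interaction they were 25 with quantile normalization, 35 with an RPKM minimum of 2, 24 and 1 with pseudocounts of 1 and 0.01, 3 without the trend, and 0 without both libraries with high lymphoid sums. After saline quantile normalization gave 1. Depth limits *Sele* and *Angpt2*, which had few reads with saline. With no filter, *Sele* in WT was 1.70 (SE 0.21, adjusted p = 0.0386) and was called, and *Angpt2* was 1.38 (adjusted p = 0.184) and was not.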
